A study of Zea mays with 10 samples.

Results

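Calmodulin CaM1 and annexin Ann7 are the genes described here, through 13 of the 5400 cDNA clones on a maize array: 9 clones of CaM1 and 4 of Ann7. A clone belonged to them when the symbol of its annotated gene, or a RefSeq synonym of it, was CaM1 or Ann7. The pair was selected from the 213 named genes with earlier results of these arrays in view, among them the a value of the clone called CaM1-1 below. The a, d, L1 and L2 values of the 13 clones are therefore given as a description, without p-values. Where such a value is said below to pass a threshold, that too is a description and not a test. Clones of a gene are numbered in the row order of the deposited table.

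Calmodulin is a small soluble protein whose EF-hand loops bind calcium. In plants, as in animals, calcium-loaded calmodulin binds other proteins, among them kinases, pumps and transcription factors, and so passes a calcium signal on. Annexins bind the phospholipids of membranes in the presence of calcium, and in plants they have been linked to secretion, growth and stress responses. Calmodulins are strongly conserved and plant genomes hold several near-identical calmodulin genes, so that signal on a CaM1 clone may include transcripts of related genes. No clone sequences were used here, and which part of a transcript each clone covers is not given in the sources used here.

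The study measured immature ears, the young female inflorescences, at stage V15 with the silks and ear apexes removed. The genotypes were the F1 hybrid B73xH99, the inbred line H99 and the inbred line B73, all field-grown with no treatment named, and each was a bulk of 10 plants. On each of the 10 arrays the hybrid's labelled cDNA was set against that of one inbred, H99 on 5 arrays and B73 on the remaining 5. On arrays 1 to 3 of each set, called forward, the hybrid carried Cy3, and on arrays 4 and 5, called reversed, it carried Cy5. Within a set, the same pooled RNA was labelled anew for each array. The spread and the p-values below thus cover technical variation, and variation between plants was not measured. In bulk tissue, fewer cells of a type and less RNA per cell cannot be told apart.

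The deposited value is a log2 ratio of the channels, centred by the authors so that each array's median lay within 0.001 of 0. The design text describes the hybrid over the inbred, under which a positive value means a higher level in the hybrid. The sources do not settle which channel stood in the numerator of the deposited numbers, nor whether the reversed arrays had been turned to one direction, so signs are given as deposited and without a direction of expression. A ratio holds no expression level, so the tissue could not be checked against its markers and the levels of CaM1 and Ann7 cannot be compared. L2 is the mean over the H99 arrays and L1 that over the B73 arrays. The dominance parameter d is their mean, which sets the hybrid against the average inbred. L2 minus L1 is the difference between the inbreds seen through the hybrid, and the additive parameter a is that difference divided by 2. A clone is said to be called when its Benjamini-Hochberg adjusted p in a limma fit of all 5357 tested clones was under 0.05. All 13 clones were tested. Precision is limited by having 5 arrays per inbred. Each array lacked 0.253% to 2.31% of their spots. Across clones, forward and reversed arrays correlated at -0.17 to 0.22 for H99 and at 0.37 to 0.54 for B73.

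The calmodulin clones had ratios of both signs. L2 lay between -0.16 and 0.16 over the 9 clones, with 4 positive and 5 negative, and L1 between -0.18 and 0.37, with 6 positive and 3 negative. The SD between clones was 0.0998 for L2 and 0.202 for L1, beside limma SEs of 0.058 to 0.078 for the L2 or L1 of a single clone. The 3 spots of a clone on one array differed with an SD of 0.0688, and a clone's arrays with an SD of 0.143 for H99 and 0.145 for B73. Over all tested clones, whatever their gene, the SD was 0.112 for L2 and 0.229 for L1.

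**Figure D1:**
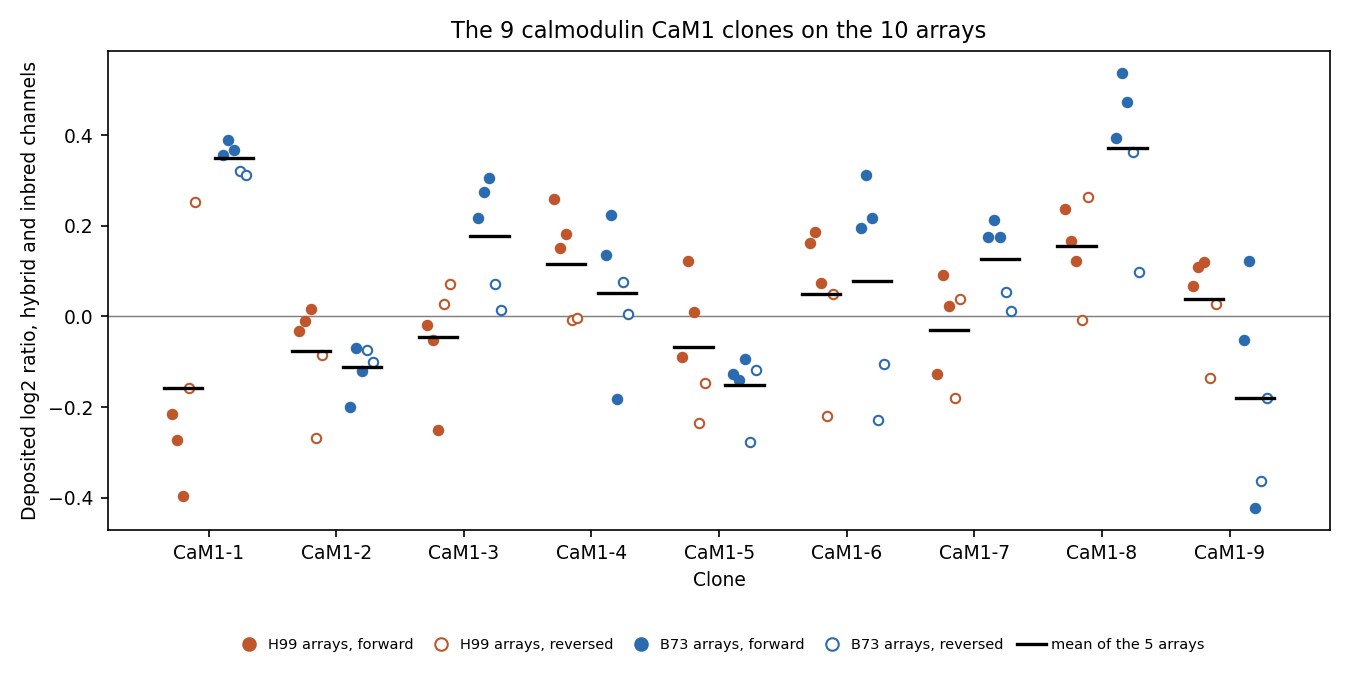
Deposited log2 ratio (vertical axis) of each of the 9 CaM1 clones (horizontal axis) on the 5 H99 arrays (left of each pair) and the 5 B73 arrays (right), as the mean of 3 spots. Filled points are forward and open points reversed arrays, and bars are means. CaM1-1 is the only clone whose H99 and B73 points do not overlap; CaM1-8 is positive on all B73 arrays and CaM1-2 and CaM1-5 are negative on all of them.

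CaM1-1 differed most between the inbreds. On the H99 arrays 1 to 5 its log2 ratios were -0.22, -0.27, -0.40, -0.16 and 0.25, with a mean of -0.16 ± 0.25 (SD, n = 5). On the B73 arrays they were 0.36, 0.39, 0.37, 0.32 and 0.31, with a mean of 0.35 ± 0.032 (SD, n = 5). The B73 arrays, forward and reversed alike, were within 0.08 of each other, and the H99 arrays were not: array 5, a reversed one, was positive and the other four were negative, yet it too lay below every B73 array. CaM1-1 was the only member whose H99 and B73 arrays did not overlap, which held for 11.8% of all tested clones. Its a was -0.25 ± 0.052 (limma SE), and 1.5% of the tested clones had an a at or below it. Its d was 0.096 ± 0.052 (limma SE). Leaving out 1 array moved its L2 between -0.26, without H99 array 5, and -0.10, without H99 array 3. Its d then lay between 0.04 and 0.13 and its a between -0.30 and -0.22, at the same omissions. Without H99 array 5 it was the 1 member called for L2, beside 1.59% of all clones.

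CaM1-8 had the highest L1 of the gene and a positive sign in both sets. Its log2 ratios on the H99 arrays were 0.24, 0.17, 0.12, -0.01 and 0.26, with a mean of 0.16 ± 0.11 (SD, n = 5). Those on the B73 arrays were 0.39, 0.54, 0.47, 0.36 and 0.10, with a mean of 0.37 ± 0.17 (SD, n = 5). In contrast to CaM1-1, nearly all of its arrays were positive, and the array sets overlapped. Its d was 0.26 ± 0.047 (limma SE), and 99.5% of the tested clones had a d at or below it. It was the only 1 of the 13 members called for d, beside 25.2% of all tested clones. Its a was -0.11 ± 0.047 (limma SE). CaM1-1 and CaM1-8 thus had nearly equal L1 and L2 of opposite sign.

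CaM1-9 had the lowest L1. Its values were 0.07, 0.11, 0.12, -0.14 and 0.03 on the H99 arrays, a mean of 0.038 ± 0.10 (SD, n = 5), and -0.05, 0.12, -0.42, -0.36 and -0.18 on the B73 arrays, a mean of -0.18 ± 0.22 (SD, n = 5). The sets overlapped and the B73 arrays spread widely, with array 2 positive and array 3 lowest. Of the other 6 clones, CaM1-3 had L2 of -0.045 ± 0.12 and L1 of 0.18 ± 0.13 (SD, n = 5 each), with every B73 array positive, from 0.015 to 0.31. CaM1-2 and CaM1-5 had every B73 array negative, with L1 of -0.11 ± 0.053 and -0.15 ± 0.073 (SD, n = 5 each), beside L2 of -0.076 ± 0.12 and -0.068 ± 0.14. CaM1-7 had L2 of -0.031 and L1 of 0.13, CaM1-4 had L2 of 0.12 and L1 of 0.052, and CaM1-6 had L2 of 0.050 and L1 of 0.078. Both signs thus occurred among clones that repeated on all 5 B73 arrays.

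The 4 clones of Ann7 had L2 between 0.010 and 0.14, and L1 of both signs, between -0.24 and 0.15. L2 was near 0 in Ann7-3 (0.010 ± 0.062) and Ann7-4 (0.015 ± 0.073, limma SE), whose H99 arrays had both signs. Ann7-1 had the largest a of the gene. Its log2 ratios were 0.23, -0.001, 0.18, 0.15 and 0.06 on the H99 arrays, a mean of 0.12 ± 0.092 (SD, n = 5), and -0.18, -0.46, -0.34, -0.08 and 0.02 on the B73 arrays, a mean of -0.21 ± 0.19 (SD, n = 5). The H99 arrays were at or above 0 within rounding and 4 of 5 B73 arrays were below it, with an overlap between H99 array 2 and B73 array 5. Its a was 0.17 ± 0.048 and its d -0.042 ± 0.048 (limma SE). The spots of this clone differed more than those of any other member on one array, with an SD of up to 0.308.

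Ann7-4 had the lowest L1 of the gene. Its values were 0.08, -0.05, -0.05, 0.06 and 0.03 on the H99 arrays, with a mean of 0.015 ± 0.063 (SD, n = 5), and -0.53, -0.05, -0.46, -0.06 and -0.07 on the B73 arrays, with a mean of -0.24 ± 0.24 (SD, n = 5). All B73 arrays were negative, but arrays 1 and 3 carried the mean while the other three lay near the H99 arrays. Ann7-3 had the highest L1, with -0.08, 0.16, 0.06, -0.04 and -0.05 on the H99 arrays, a mean of 0.010 ± 0.097 (SD, n = 5), and 0.18, 0.34, 0.19, 0.02 and 0.03 on the B73 arrays, a mean of 0.15 ± 0.13 (SD, n = 5). Every B73 array was positive for it, the reversed ones barely so. Ann7-2 had the largest L2, with 0.30, 0.20, 0.11, 0.09 and -0.01 on the H99 arrays, a mean of 0.14 ± 0.12 (SD, n = 5). On the B73 arrays it had 0.02, -0.001, 0.13, -0.01 and -0.10, a mean of 0.008 ± 0.084 (SD, n = 5), values on both sides of 0.

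**Figure D2:**
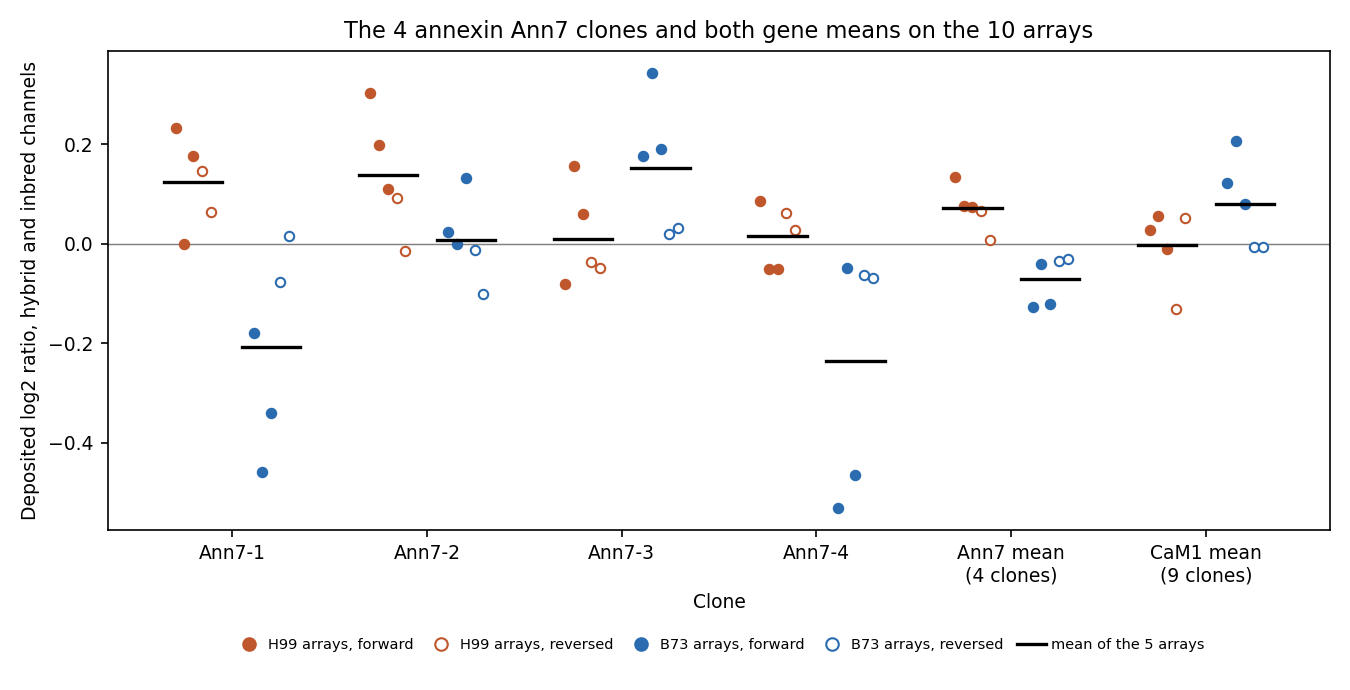
Deposited log2 ratio (vertical axis) of the 4 Ann7 clones and of the means over the clones of Ann7 and CaM1 on the 5 H99 arrays (left of each pair) and the 5 B73 arrays (right). Filled points are forward and open points reversed arrays, and bars are means. The Ann7 mean is above 0 on every H99 array, from 0.007 to 0.134, and below 0 on every B73 array, from -0.127 to -0.031, although its clones differ; the CaM1 means overlap.

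Averaged over its 9 clones, CaM1 had values of 0.027, 0.055, -0.011, -0.132 and 0.052 on the H99 arrays and of 0.122, 0.207, 0.080, -0.007 and -0.006 on the B73 arrays. The means were -0.002 ± 0.077 and 0.079 ± 0.091 (SD, n = 5 each), with overlapping arrays. The clones of this gene thus largely cancelled, leaving d at 0.039 ± 0.039 and a at -0.040 ± 0.039 (limma SE).

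Averaged over its 4 clones, Ann7 had values of 0.134, 0.076, 0.073, 0.066 and 0.007 on the H99 arrays, against -0.127, -0.041, -0.121, -0.034 and -0.031 on the B73 arrays. All H99 arrays were positive and all B73 arrays negative, with means of 0.071 ± 0.045 and -0.071 ± 0.049 (SD, n = 5 each). The array sets did not overlap, which held for 11.5% of the 4763 genes and unnamed clones tested in this way. The means were of equal size and opposite sign, so that d was 0.000 ± 0.036 and a 0.071 ± 0.036 (limma SE). Both orientations showed the signs, with forward means of 0.094 for H99 and -0.096 for B73 and reversed means of 0.036 for H99 and -0.032 for B73. Neither gene mean was called for L2, L1, d or a, beside 0.987%, 40.4%, 24.1% and 19.5% of all genes and unnamed clones that were. With each row's own variance in place of limma's moderated one, Ann7 was called for L1 and for a, beside 32.7% and 7.62% of all rows. With the median of the 6 neighbouring clones in the row order removed on each array, L1 of Ann7 was 0.00 and its d 0.06. Ann7-3 ran against the gene mean, with an a of -0.071 ± 0.044 (limma SE), while the other three clones had a positive a.

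Counts of calls over the 13 clones are given with the share of all tested clones. Since the genes were picked with these contrasts known, nothing is read from them. For L2 limma called 0 of 13, beside 1.23% of all tested clones. At an unadjusted p under 0.05 there were 3 of 13, beside 15.4% of all clones, and with each clone's own variance 0 were called, beside 0.131%. For L1 it called 5 of 13 (38.5%), CaM1-1, CaM1-3, CaM1-8, Ann7-1 and Ann7-4, beside 41.7% of all tested clones. For d it called 1 of 13, CaM1-8, beside 25.2%, and for a 2 of 13, CaM1-1 and Ann7-1, beside 20.3%. The medians over the 9 CaM1 clones were -0.031 for L2, 0.078 for L1, 0.064 for d and -0.014 for a. Over the 4 Ann7 clones they were 0.069, -0.100, 0.015 and 0.095, and over all tested clones -0.002, -0.014, 0.004 and 0.012. Of the called L1 values, those of CaM1 were all positive and those of Ann7 both negative, but each gene also had uncalled clones of the other sign. The L1 count was 2 without B73 array 1 or without B73 array 3, where the share of all clones was also lower, at 27.4% and 26.1%. With the reversed B73 arrays turned it was 0, as it was among all 5357 clones, and L1 of CaM1-1 was 0.10 and that of CaM1-8 0.19. The count for a was 1 without H99 array 1 or 3 or without B73 array 1, 2 or 3, beside 11.1% to 15.1% of all clones, and 4 without B73 array 5, beside 28.0%.

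**Figure D3:**
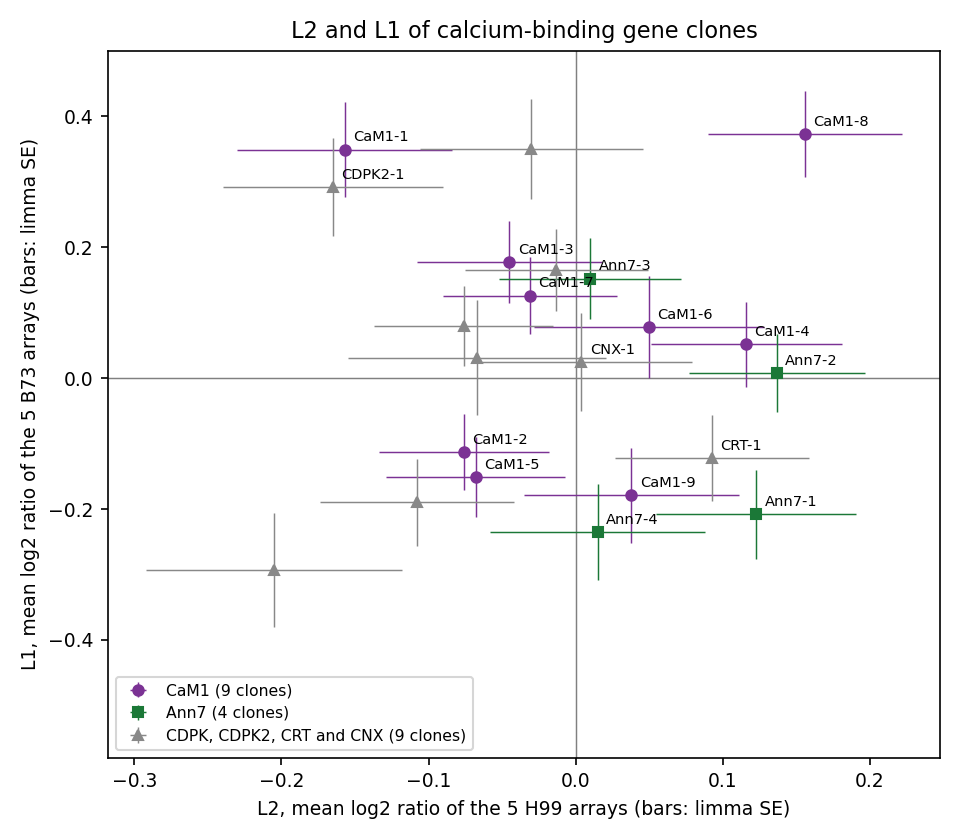
L2 (horizontal axis, log2) and L1 (vertical axis, log2) of the 9 CaM1 clones, the 4 Ann7 clones and the 9 clones of CDPK, CDPK2, CRT and CNX, with bars of 1 limma SE. CaM1 clones lie in all 4 quadrants; the Ann7 clones lie at positive L2 with L1 from -0.24 to 0.15. CDPK clones are not labelled.

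Dye orientation was not used to select the genes, and forward was tested against reversed within each inbred. In the H99 set the forward mean was above the reversed mean in 10 of 13 clones, and in the B73 set also in 10 of 13. The share over all tested clones was not computed, so nothing is read from these counts. Limma called 0 of 13 clones for this difference in the H99 set, beside 4.31% of all tested clones, and 2 had an unadjusted p under 0.05, beside 20.4% of all clones. In the B73 set 5 of 13 had an unadjusted p under 0.05, a count for which no share of all clones was computed. Limma called 1 of 13 there, beside 15.4% of all clones. This was CaM1-6, with 0.19, 0.31 and 0.22 on the forward and -0.23 and -0.10 on the reversed B73 arrays, a difference of 0.41 ± 0.106 (limma SE, adjusted p = 0.0209). Forward and reversed B73 arrays of this clone had opposite signs as deposited, so that its L1 of 0.078 averages unlike values. With the reversed B73 arrays turned, its L1 was 0.21. The B73 count of called clones was 0 without B73 array 4 or 5, beside 2.48% and 4.13% of all clones. With arrays scaled to one spread it was also 0, beside 1.31%. It was 2 without B73 array 2, beside 13.4%.

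For the H99 arrays the forward minus reversed difference of CaM1-1 was -0.34 ± 0.115 (limma SE, adjusted p = 0.0993), with means of -0.29 forward and 0.048 reversed, and was not called. In B73 the same clone had means of 0.37 forward and 0.32 reversed. Ann7-1 had B73 means of -0.33 forward and -0.030 reversed, a difference of -0.30 ± 0.110 (limma SE, adjusted p = 0.0734), and Ann7-4 had -0.35 forward and -0.066 reversed, a difference of -0.28 ± 0.125 (limma SE, adjusted p = 0.127). In both clones the forward mean was thus the lower, but the difference was not called. In Ann7-4 the forward B73 array 2, at -0.05, lay near the reversed arrays, at -0.06 and -0.07. The orientation difference of the gene means was not called in either inbred. It was 0.063 ± 0.095 in the H99 set and 0.143 ± 0.095 in the B73 set for CaM1, and 0.058 ± 0.089 and -0.064 ± 0.089 for Ann7 (limma SE).

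**Figure D4:**
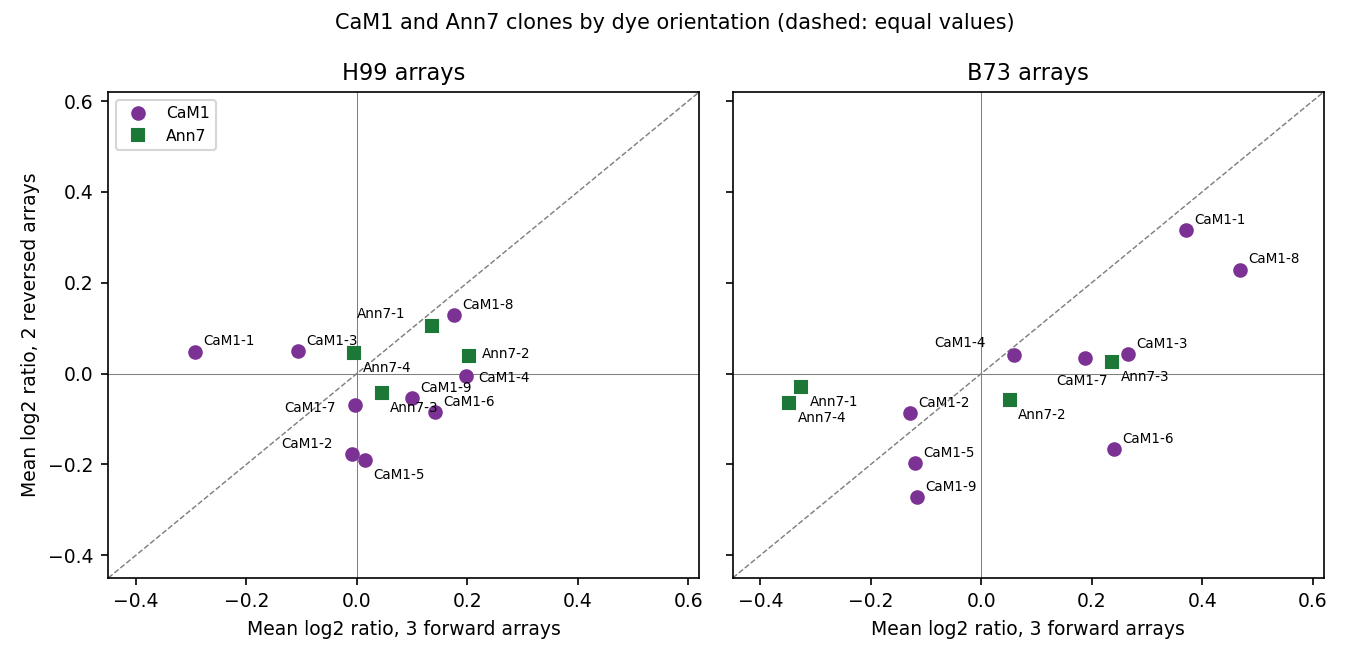
Mean log2 ratio of the 3 forward arrays (horizontal axis) and of the 2 reversed arrays (vertical axis) for the 13 clones, in the H99 set (left) and the B73 set (right); points are clones and the dashed line marks equal values. Points below the line, 10 of 13 in each set, have a higher forward mean, and the share over all clones was not computed. CaM1-6 is the clone with the significant difference, in the B73 set.

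The place of a clone in the row order moved with its value as well. Across all 5357 tested clones, L1 correlated with the median of the 6 nearest clones in the table at r = 0.428 (Spearman's rho 0.432), and L2 at r = 0.321 (rho 0.325). These are correlations across clones, which share arrays and are not independent replicates. The neighbours of CaM1-1 and CaM1-8, the clones with the highest L1, had L1 medians of 0.116 and 0.157. Those of CaM1-5 and CaM1-9, which were negative, had 0.032 and 0.051, and those of CaM1-3, which was positive, -0.099. The neighbours of Ann7-1 lay at -0.097 and those of Ann7-4 at -0.019. When the median of the neighbours was taken off on each array, L1 of CaM1-1 was 0.23, that of CaM1-8 0.22 and that of Ann7-4 -0.22. The clones with the lowest neighbours moved farther: L1 of CaM1-2 was 0.17 in place of -0.11 and that of Ann7-2 0.23 in place of 0.01, both then called, as was the d of Ann7-2, at 0.22 in place of 0.07. L1 of Ann7-1 was then -0.11 and its a 0.10, neither of them called, and the L1 mean of Ann7 was 0.00 in place of -0.07. In this setting 10 of 13 clones were called for L1, beside 38.5% of all clones. The negative B73 values of CaM1-2 thus depended on leaving the neighbours' level in. The part of array position in these values was not otherwise tested.

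**Figure D5:**
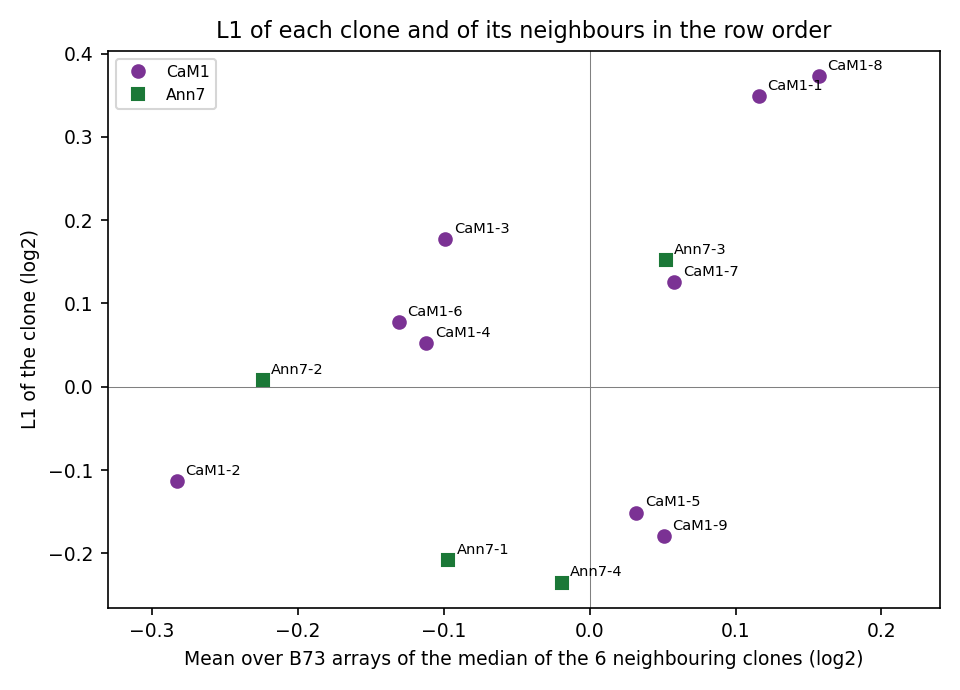
L1 of each of the 13 clones (vertical axis, log2) against the B73 mean of the median of its 6 neighbours in the row order (horizontal axis, log2). CaM1-1 and CaM1-8 have the highest L1 and also the highest neighbours, at 0.116 and 0.157; CaM1-5 and CaM1-9 have negative L1 beside positive neighbours.

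Other annotated genes of calcium binding and signalling were 4, with 9 clones. CDPK and CDPK2 are calcium-dependent protein kinases, which carry a calmodulin-like domain of their own, CRT is calreticulin, a calcium-binding chaperone of the endoplasmic reticulum, and CNX is the usual symbol of calnexin, its membrane-bound relative. Of the 9 clones, limma called 0 for L2 and 5 for L1 (3 positive, 2 negative), beside 1.23% and 41.7% of all tested clones. It called 3 for d (1 positive, 2 negative) and 2 for a (both negative), beside 25.2% and 20.3%. For L2, 2 had an unadjusted p under 0.05, beside 15.4% of all clones. The single clone of CDPK2 had -0.25, -0.38, -0.36, 0.14 and 0.02 on the H99 arrays, against 0.18, 0.23, 0.42, 0.39 and 0.24 on the B73 arrays. It had an a of -0.23 ± 0.053 (limma SE, adjusted p = 0.00852). Its H99 and B73 arrays did not overlap, which held for 11.8% of all tested clones. As in CaM1-1, the forward H99 arrays were negative and the B73 arrays positive. The order of the arrays within a set differed, and H99 array 4 was 0.14 in CDPK2 but -0.16 in CaM1-1. The H99 difference between forward and reversed arrays of CDPK2, -0.41 ± 0.106 (limma SE, adjusted p = 0.0377), was called, beside 4.31% of all clones.

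The 6 clones of CDPK all had a negative L2, from -0.21 to -0.013, while their L1 ran from -0.29 to 0.35, with both signs as in CaM1. Their mean was negative on every H99 array, at -0.083 ± 0.021, and was 0.024 ± 0.049 on the B73 arrays (SD, n = 5 each). The H99 and B73 arrays of this mean did not overlap, as in Ann7 and in 11.5% of all genes and unnamed clones. This mean was not called for a (-0.053 ± 0.035, limma SE, adjusted p = 0.286). CRT had L2 of 0.093 ± 0.15 and L1 of -0.12 ± 0.13, and CNX had 0.004 ± 0.14 and 0.024 ± 0.21 (SD, n = 5 each); neither was called for L2, L1, d or a. CDPK2 and CRT thus had values on opposite sides of 0 in both sets, and the calcium genes showed no common direction.

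Likeness between genes was measured by Pearson's r of the gene means over the 10 arrays, among genes with at least 3 clones, 69 for each member. The 10 arrays share the hybrid's RNA pool and fall into H99 and B73 sets, so r describes this table only, and includes the difference between the sets. CaM1 was most like rld1, a class III homeobox gene of leaf polarity, with r = 0.824 (rho 0.648), followed by EF1-A, a translation elongation factor, with r = 0.785 (rho 0.661), and nfd101, a chromatin gene of the HMG type, with r = 0.686 (rho 0.806). The mean of rld1 was -0.024 on the H99 and 0.054 on the B73 arrays. Ann7 was most like GPC1 and gpc2, cytosolic glyceraldehyde-3-phosphate dehydrogenases, with r = 0.902 (rho 0.830) and r = 0.881 (rho 0.915), and the aquaporin PIP2-1, with r = 0.863 (rho 0.782). GPC1 had means of 0.231 on the H99 and -0.164 on the B73 arrays, the signs of Ann7 with wider values. PIP2-1 had -0.031 and -0.293. Within a set there were only 5 arrays, and there r of Ann7 with GPC1 was 0.87 (H99) and 0.10 (B73), with gpc2 0.79 and 0.05, and with PIP2-1 -0.54 and 0.78. The likeness over all arrays was thus not found in each set. For CaM1, r with rld1 was 0.80 in both sets. CaM1 and Ann7 themselves had r = -0.491 (rho -0.527), with -0.05 within the H99 and -0.30 within the B73 arrays. CDPK, another calcium gene, had r = 0.597 (rho 0.394) with CaM1, but 0.06 (H99) and 0.58 (B73) within the sets. With Ann7, CDPK had r = -0.688 (rho -0.818), but -0.65 (H99) and 0.48 (B73) within the sets.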

How the data were processed

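For each array, poly(A) RNA from at least 3 extractions was newly labelled with Cy3 or Cy5, per the labels' protocols. The deposited values are log2 ratios of both channels of a spot, normalized by the authors. Their scanner settings, background correction, spot filter and normalization method are not stated.

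Each 3 successive spots were averaged as 1 clone, missing spots staying missing. Names came from the platform annotation and from RefSeq (assembly Zm-B73-REFERENCE-NAM-5.0), which held 208 of the 213 genes. A clone needed 3 values per inbred with 1 per orientation, which kept 5357 of 5400. With limma 3.58.1, run in R 4.3.3, one model of all 10 arrays estimated each inbred's mean, the reversed arrays as deposited, and p-values were adjusted by Benjamini and Hochberg over the whole table. Gene means came from a table with the clones of each named gene averaged (4763 rows). Orientation was tested with a mean per inbred and orientation. The fits were checked on simulated data.

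The members, lists and settings were chosen with earlier results of these data known. The calcium list took genes whose symbol or synonym held calmodulin, calcium, annexin, calreticulin, calnexin or EF-hand, or began with CaM, CML, CDPK, CPK, CBL, CIPK, ann, crt, cnx, eca, cax or plc; RefSeq descriptions were not used, and none was removed. Values on every array are given for both gene means and, in each gene, for the clones with the highest and lowest L1 and the largest L2 and a in size. CaM1-6 was added because it was called for orientation, and the array values of CDPK2 after they were seen.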

Additional observations from a re-analysis of the deposited data

Results flagged for a closer look

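Among 30 groups of 5 arrays, 2 for each clone and gene mean, 1 held an array far from the rest: CaM1-5 had -0.278 on B73 array 4, against -0.14 to -0.093 on the other four. Chance gives about 1 in 20 such groups. The Ann7 gene mean was positive on every H99 array and negative on every B73 array, with an a of 0.071. Limma did not call it in the table of gene means, and it was called with each row's own variance. With the neighbours' median removed, the L1 mean of Ann7 was 0.00. The gene was picked with these arrays in view, so this stands as a description. For the same reason the a of CaM1-1, -0.253, and that of Ann7-1, 0.166, which passed the limma threshold over all clones, are not tests either. No explanation was tested for any of these.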

How the results depend on the processing

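L1 is a mean of B73 arrays, so leaving out or turning H99 arrays could not change its value. Another variance estimate alone could change no value. The members were also picked with these contrasts known, so the counts here are a description. The 8 calls of the report (5 for L1, 1 for d, 2 for a) kept their sign under all 21 alternatives. Those of CaM1-1 (L1, a) and CaM1-8 (L1, d) were called in 19 of 21, lost only with the reversed arrays of B73 or of both inbreds turned; CaM1-3 (L1) was called in 13, Ann7-4 (L1) in 15, and Ann7-1 in 13 (L1) and 11 (a). The called clones numbered 0 for L1, d and a alike with the reversed B73 arrays turned and with those of both inbreds turned, and 4 for a with those of H99 turned. The whole table moved likewise: of all 5357 clones, 0 (L1), 2 (d) and 2 (a) were called with B73 turned, 0 with both turned, and 28.3% for a with H99 turned. The L1 count was 2 with arrays scaled to one spread (21.4% of all clones), 3 after quantile normalization (1338 of 5357) and 10 with the neighbours' median removed (38.5%), an alternative added after seeing the data. There the L1 mean of Ann7 was 0.00 and its d 0.06. The d count was 2 with spot medians (24.3% of all clones), with orientation as a term (28.3%) and with the neighbours' median removed (24.4%), and the a count 1 with each clone's own variance (8.53%). That fit also called the Ann7 mean for L1 and a. Forward minus reversed in B73 was called in 0 members with arrays scaled to one spread (1.31% of all clones). Leaving out 1 array gave gene means between -0.02 and 0.03 (L2), 0.05 and 0.10 (L1), 0.02 and 0.05 (d) and -0.05 and -0.02 (a) for CaM1, and between 0.06 and 0.09, -0.08 and -0.06, -0.01 and 0.01, and 0.06 and 0.08 for Ann7. Called clones then numbered 0 to 1 (L2), 2 to 6 (L1), 1 to 2 (d), 1 to 4 (a), and 0 and 0 to 2 for orientation in H99 and B73. The shares of all clones moved too. They were 0.261% to 1.89% (L2), 26.1% to 46.2% (L1), 13.5% to 32.4% (d) and 11.1% to 28% (a). For orientation they were 0% to 6.23% in H99 and 2.48% to 17.6% in B73. The cause of these changes was not tested. Per single spot, 38.5% of the 39 member spots were called for L1, 7.69% for d and 12.8% for a, beside 37.4%, 20.3% and 16.5% of all spots. With the replicate number as a block, 4 clones were called for L1 and 2 for a (38.8% and 15.4% of all). Same-numbered H99 and B73 arrays deviated together at -0.29 to 0.31, and only H99 array 4 was most like its own number. These values do not show a pairing by number, nor do they exclude one.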
